A study of Sus scrofa with 6 samples.

Results

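The miR-10 and miR-196 families are microRNAs (miRNAs) whose genes lie inside the HOX clusters. They were represented on the pig miRNA array by 6 of its 322 probes, namely ssc-miR-10a-5p, ssc-miR-10a-3p, ssc-miR-10b, ssc-miR-196a, ssc-miR-196b and ssc-miR-196b-3p, written here without the ssc prefix that marks pig miRNAs. The probes were chosen by name and not by their signal, although earlier results of these data were known. Total RNA of the left atrium (LA) came from 3 sham and 3 paced pigs, with 1 single-colour Cy3 array for each animal and no pooling. In the paced animals, which the labels call the PAF group, self-terminating paroxysms of atrial fibrillation (AF) had been induced by burst pacing through a catheter in the right atrium, and the LA was harvested about a day later. The sham-control animals were operated on and not burst-paced, and esmolol, a beta blocker, was given before pacing. The labels call all animals neonatal piglets, whereas the methods describe Large white pigs aged 3 months. The samples were whole LA tissue, in which fewer cells of a type and less RNA per cell cannot be told apart.

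miRNAs are short RNAs that pair with messenger RNAs, chiefly through their seed, which is bases 2 to 8 counted from the 5′ end, and lower the output of the messages they pair with. HOX genes encode the transcription factors that give cells their position along the body axis, and miR-10 and miR-196 genes are transcribed from between them and target HOX messages themselves. Both families are known for marking the trunk and the posterior body rather than the heart, although miR-10 is also found in endothelium. In the RefSeq gene table of the Sscrofa11.1 assembly, the nearest protein-coding HOX genes on either side of MIR10A were HOXB3 and HOXB5. Those of MIR10B were HOXD8 and HOXD3. Nearness was that of annotated gene ends, and HOX genes overlapping a miRNA gene were not considered. MIR196A-1 lay between HOXB8 and HOXB13, and MIR196A-2 between HOXC10 and HOXC9, so that 1 miR-196a probe covers the product of both genes. MIR196B was not matched there.

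The mature sequences that the probes detect are shown because the pairs within each family are nearly identical, with the seed in capitals. They are the target sequences given with the deposited arrays, followed by 2 relatives on the same array, miR-100 and let-7a.
miR-10a-5p: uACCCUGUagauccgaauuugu
miR-10b: uACCCUGUagaaccgaauuugu
miR-10a-3p: cAAAUUCGuaucuaggggaau
miR-196a: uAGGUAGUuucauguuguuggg
miR-196b: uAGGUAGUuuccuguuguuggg
miR-196b-3p: cGACAGCAcgacacugccuuca
miR-100: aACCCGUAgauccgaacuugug
let-7a: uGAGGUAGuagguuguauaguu
miR-10a-5p and miR-10b shared the seed and 21 of 22 bases, and differed by U12A (miR-10a-5p base, position from the 5′ end, miR-10b base). miR-196a and miR-196b likewise shared the seed and 21 of 22 bases, with the single difference A12C. Each of these seeds was held by that pair and by no other of the 322 targets at bases 2 to 8. A probe can therefore pick up the other member of its pair, and how far this happened on the arrays was not tested. The opposite arms, miR-10a-3p and miR-196b-3p, shared their seed with no other target. The closest sequences outside the families were miR-100 for miR-10a-5p, with 4 edits and a common run of 11 bases, and let-7c, miR-190a and miR-708-5p for miR-196a, with 8 edits. The seed of miR-196a and miR-196b also occurs in let-7a, shifted by 1 base, at bases 3 to 9.

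The 6 probes gave little signal in the LA. Each was printed as 9 repeat spots, and its level was read against the 786 empty spots of the same array. To count as well above background, the median of the repeats had to pass a cut set at the empty-spot median plus 3 times the SD among empty spots. The cut was passed in 3 of the 36 combinations of a probe and an array, namely miR-10a-5p in sham replicate 2 and miR-10b in sham replicate 3 and paced replicate 2. The probes of miR-10a-3p, miR-196a, miR-196b and miR-196b-3p did not reach it on any array. On the array as a whole, 143 of 322 probes (44.4%) were well above background on no array and 104 (32.3%) on all 6.

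The cut was not equally strict on all arrays. It lay 25.05, 48.4 and 182 scanner units over the empty-spot median in sham replicates 2, 3 and 1, and 92.5, 103 and 151 units over it in paced replicates 2, 3 and 1. Relative to the median net signal of the 104 probes measured on all arrays, this limit ran from 1.57% in sham replicate 2 to 12.2% in paced replicate 1. Replicate 1 of each group also had the fewest probes well above background in its group, 126 in sham and 104 in paced. The empty-spot median was 64.7, 117 and 214 units in the sham animals and 242.5, 261 and 399 units in the paced animals, without overlap, so that background level and pacing cannot be told apart.

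**Figure D1:**
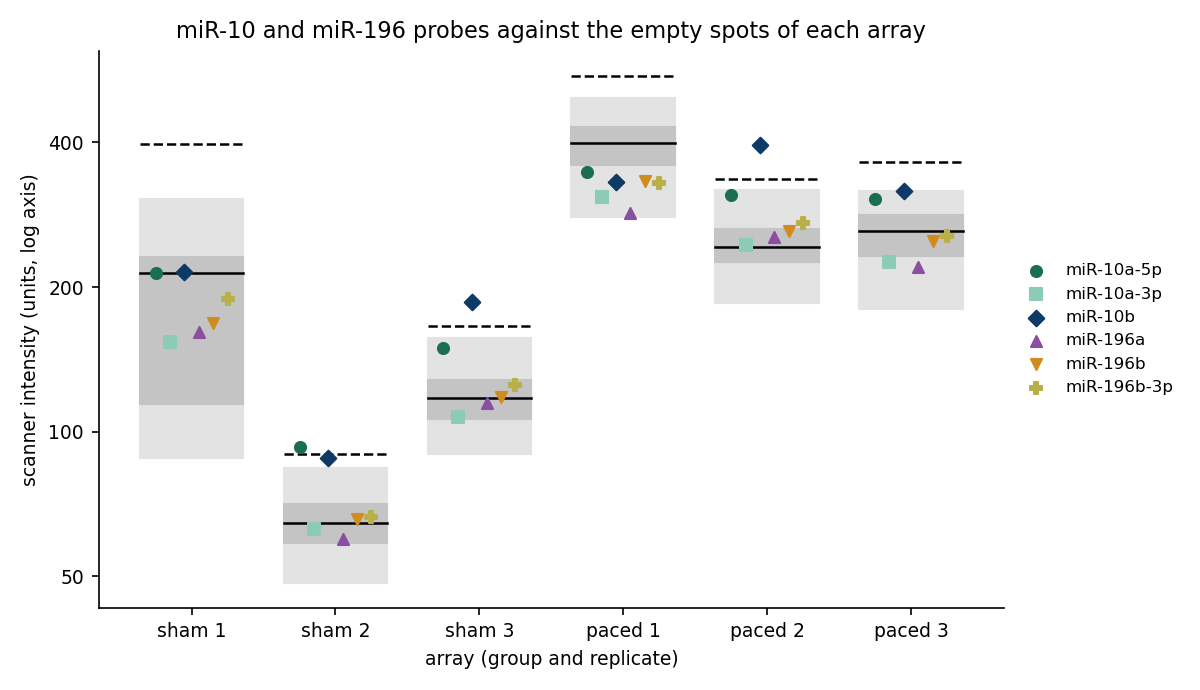
Median scanner intensity of the 9 repeat spots of each probe (points, log axis) on each of the 6 arrays. Light grey spans percentiles 1 to 99 of the empty spots, dark grey the middle part from percentile 25 to 75, the solid line is their median and the dashed line the cut at 3 SD over it; only miR-10a-5p in sham replicate 2 and miR-10b in sham replicate 3 and paced replicate 2 lie above the cut.

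miR-10b, the HOXD-cluster member of the family, was well above background on 2 arrays, against 1 for miR-10a-5p and 0 for the other 4 probes. In the sham animals (replicates 1, 2 and 3, in that order here and below) the medians of its repeat spots were 215, 88.4 and 186 scanner units. In the paced animals they were 331, 394 and 317 units. Set against the empty spots of their own array, these medians lay at percentiles 50.8, 99.9 and 99.7 in sham and at percentiles 12.2, 99.9 and 99.2 in paced animals. The signal thus stood at the upper edge of the empty spots or over it on 4 arrays, 2 of each group, and inside their range on replicate 1 of either group.

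Measured over its 15 nearest empty spots, the median miR-10b spot was at -4.69, 26.1 and 62.8 units in the sham animals. In the paced animals it was at -44.8, 130 and 59.7 units. By this local measure miR-10b was well above background on 4 arrays, with 9 of 9 spots past the local cut in sham replicates 2 and 3 and in paced replicate 2, and 6 of 9 in paced replicate 3. The sham mean was 28.04 ± 33.8 units and the paced mean 48.2 ± 87.8 units (SD, n = 3 each), a difference well inside the spread (exact permutation test, two-sided, p = 0.9). With 3 animals against 3 this test cannot give a p below 0.1.

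For miR-10a-5p, the HOXB-cluster member, the median spot read 214, 93.0 and 149 scanner units in the sham animals. In the paced animals it read 348, 310 and 305 units. Over the nearest empty spots it was at -4.46, 27.0 and 24.95 units in the sham animals. In the paced animals it was at -48.5, 56.2 and 33.6 units. Locally it was well above background in sham replicate 2, with 9 of 9 spots past the local cut, and in paced replicate 2, with 5 of 9. The local mean was 15.8 ± 17.6 units for sham and 13.8 ± 55.1 units for paced animals (SD, n = 3 each), and the groups overlapped (exact permutation test, two-sided, p = 1).

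On the arrays of replicates 2 and 3 of both groups, all 72 repeat spots of miR-10a-5p and miR-10b lay over their local background. On paced replicate 1 none of the 18 spots did, and on sham replicate 1 it was 3 of 9 spots of miR-10a-5p and 1 of 9 of miR-10b. All 6 probes were below their local background on paced replicate 1, with medians from -97.3 to -44.8 units. On sham replicate 1 the spots of miR-10a-5p read 199 to 220 units, and those of miR-10a-3p, in the adjacent row, 147 to 168 units. On paced replicate 1 they read 319 to 378 and 288 to 339 units. The nearest empty spots of miR-10a-3p gave medians of 218 and 415 units, above all of its spots. On sham replicate 1 the median spots of miR-196a, miR-196b and miR-196b-3p read 161, 168 and 189 units. Those of miR-10a-5p and miR-10b read 214 and 215 units there. On paced replicate 1 the same 3 miR-196 probes read 285, 332 and 328 units, close to miR-10a-5p and miR-10b at 348 and 331 units for the last 2. Whether miR-10 was present or absent on these arrays cannot be told from such values. Repeat spots share 1 hybridization and are not replicates of an animal.

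The other arm of the miR-10a hairpin, miR-10a-3p, was printed in the row next to miR-10a-5p, and its median spot did not exceed the nearest empty spots on any array. It lay at -63.2, -2.50 and -8.80 units in the sham and at -97.3, -6.31 and -45.0 units in the paced animals. miR-196a, the product of the miRNA genes in the HOXB and HOXC clusters, lay below its local background on all 6 arrays as well. It was at -60.2, -2.31 and -3.90 units in sham and at -86.7, -10.2 and -24.9 units in paced animals. For miR-196b the local values ran from -80.5 to 1.06 units over the 6 arrays, and for miR-196b-3p from -69.1 to 8.43 units. Over these 4 probes, 4 of 216 spots passed the local cut. One of them was a single bright spot of miR-196b-3p in sham replicate 3, at 274 units, where the other 8 repeats reached at most 134 units.

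The repeats of a probe did not all share 1 background. In sham replicate 1 the 3 upper spots of miR-196b read 90.9 to 97.1 units, where the nearest empty spots gave 95.2 to 98.6 units. The 6 lower repeats read 163 to 181 units, where the nearest empty spots gave 204.5 to 221 units. The probe thus stepped in the same direction as the empty spots around it.

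**Figure D2:**
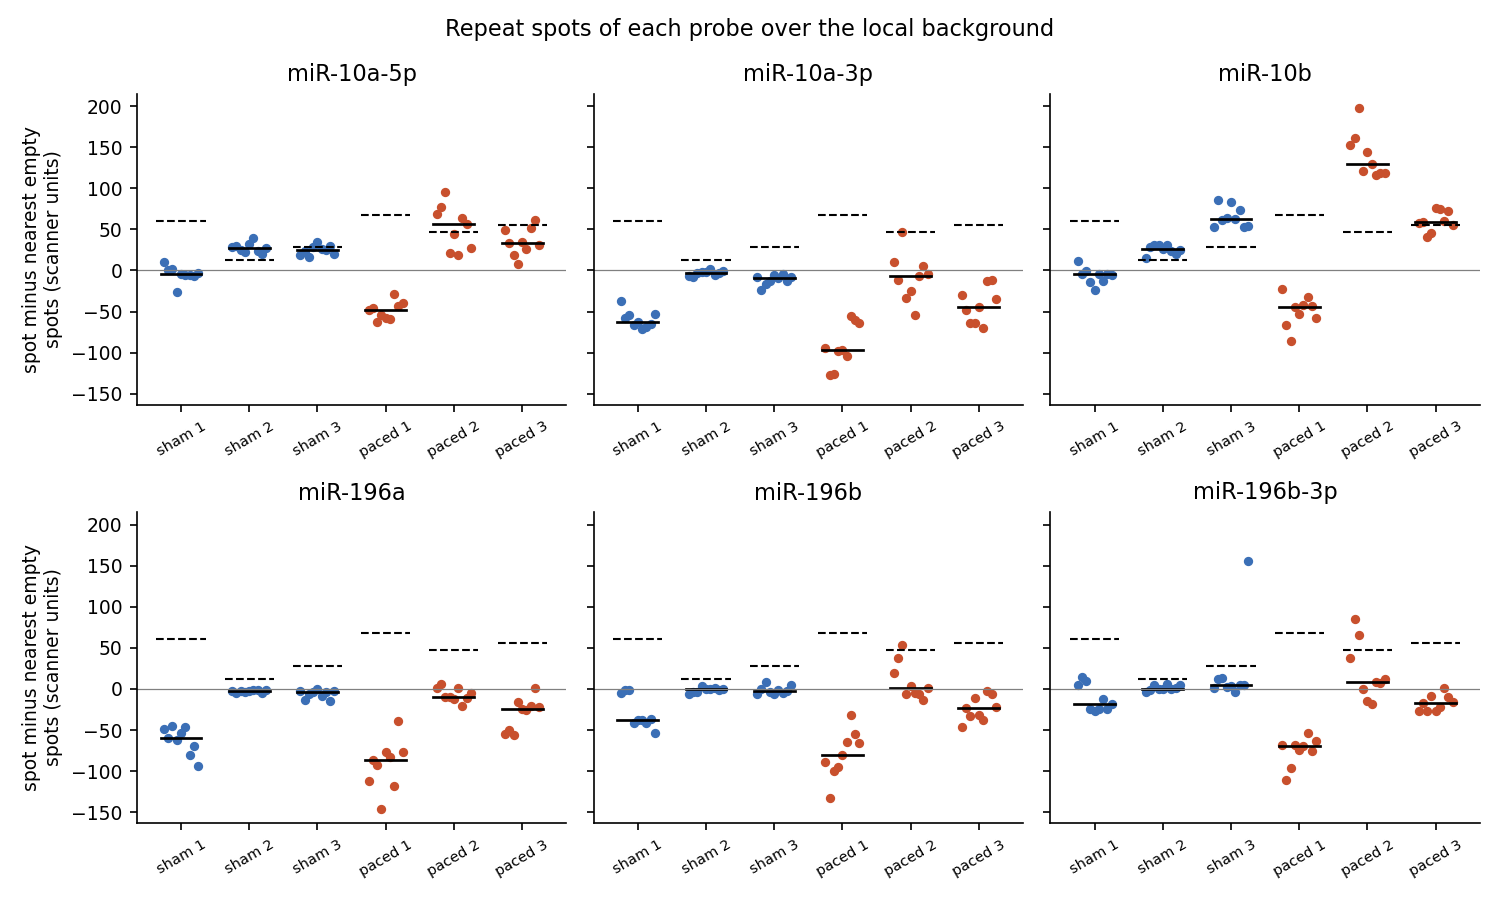
Each of the 9 repeat spots of a probe minus the median of its 15 nearest empty spots (points, scanner units; sham blue, paced orange), with the median of the repeats (solid line) and the local cut at 3 SD (dashed line) for each array. miR-10b passes the cut on sham replicates 2 and 3 and paced replicates 2 and 3, miR-10a-5p on sham replicate 2 and paced replicate 2, and the other 4 probes on no array.

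To ask whether the AF paroxysms changed these miRNAs, background was first removed from the scanner values by normexp (offset 50), and after quantile normalization all 322 probes were compared in limma. None of the 6 probes passed the methods' threshold of 0.05 for an unadjusted p, and none passed it after adjustment by the method of Benjamini and Hochberg. Over the whole array 34 probes (10.6%) passed the unadjusted threshold, 11 higher (3.42%) and 23 lower (7.14%) in paced animals, and 0 passed the adjusted one (0%). Run on the same values, the methods' t-test also gave 0 of the 6 probes at either threshold, and limma gave 1, miR-196b, at the unadjusted threshold when its prior was made robust and followed the intensity (unadjusted p = 0.0314, adjusted p = 0.316), a setting under which 40 of all 322 probes passed. Paced and sham values overlapped for all 6 probes, while 56 of 322 probes (17.4%) showed no overlap, 22 of them higher (6.83%) and 34 lower (10.6%) in paced animals.

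On the normalized log2 scale miR-10b reached 7.16, 7.29 and 7.63 in the sham animals. In the paced animals it reached 7.05, 7.77 and 7.58, so that a paced animal held both the lowest and the highest place. The means were 7.36 ± 0.24 (SD, n = 3) and 7.47 ± 0.37 (SD, n = 3). The difference of 0.11 (SE 0.21, limma, adjusted p = 0.879) had a 95% interval from -0.38 to 0.60. It was decided by single animals, at 0.34 without paced replicate 1, -0.041 without paced replicate 2 and -0.0019 without sham replicate 1.

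miR-10a-5p was at 7.17, 7.32 and 7.21 in the sham and at 7.13, 7.20 and 7.44 in the paced animals on this scale. Its highest value was that of paced replicate 3 and its lowest that of paced replicate 1. Its difference, 0.027 (SE 0.10, adjusted p = 0.919 in limma), had a 95% interval from -0.21 to 0.27. It turned to -0.066 without paced replicate 3 and to -0.0093 without sham replicate 1. A doubling of the corrected signal would appear as 0.74 for miR-10a-5p and as 0.76 for miR-10b on this scale, both above the upper end of the interval. The corrected signal of such dim probes still holds background, so these intervals do not limit the change of the miRNA itself.

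miR-196b had the largest difference of the 6. The sham animals stood at 6.52, 6.82 and 6.70 and the paced animals at 6.96, 6.80 and 6.90 on the log2 scale. Only sham replicate 2 reached into the paced range. The difference was 0.21 (SE 0.10, limma, unadjusted p = 0.0677, adjusted p = 0.474), with a 95% interval from -0.02 to 0.44. It passed neither threshold, and it was -0.035 when normexp was run against the nearest empty spots, a setting chosen after the data were examined. Leaving out sham replicate 2 raised it to 0.30 (limma, unadjusted p = 0.0309, adjusted p = 0.663). Leaving out sham replicate 1, where the repeats of this probe did not share the same background, lowered it to 0.12 (limma, unadjusted p = 0.221, adjusted p = 0.773). With the median of the repeat spots it was 0.11 (limma, unadjusted p = 0.191, adjusted p = 0.692).

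The 3 remaining probes had smaller differences. For miR-10a-3p the difference was 0.13 (SE 0.08, adjusted p = 0.565 in limma) with a 95% interval from -0.05 to 0.32. For miR-196b-3p it was 0.08 (SE 0.09, adjusted p = 0.788), and for miR-196a 0.07 (SE 0.07, adjusted p = 0.766). Their levels stayed between 6.46 and 7.01 in all 6 animals. All 6 differences were above 0, as were those of 162 of 322 probes (50.3%). This share takes in bright and dim probes, and it was not counted for dim probes alone. miR-196a turned negative with cyclic loess, with the median of the repeat spots and on the authors' processed values. miR-196b-3p did so with plain subtraction, with the median of the repeat spots, against the nearest empty spots and without sham replicate 1. miR-196b did so against the nearest empty spots, and miR-10a-5p and miR-10b with the single animals named above left out.

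**Figure D3:**
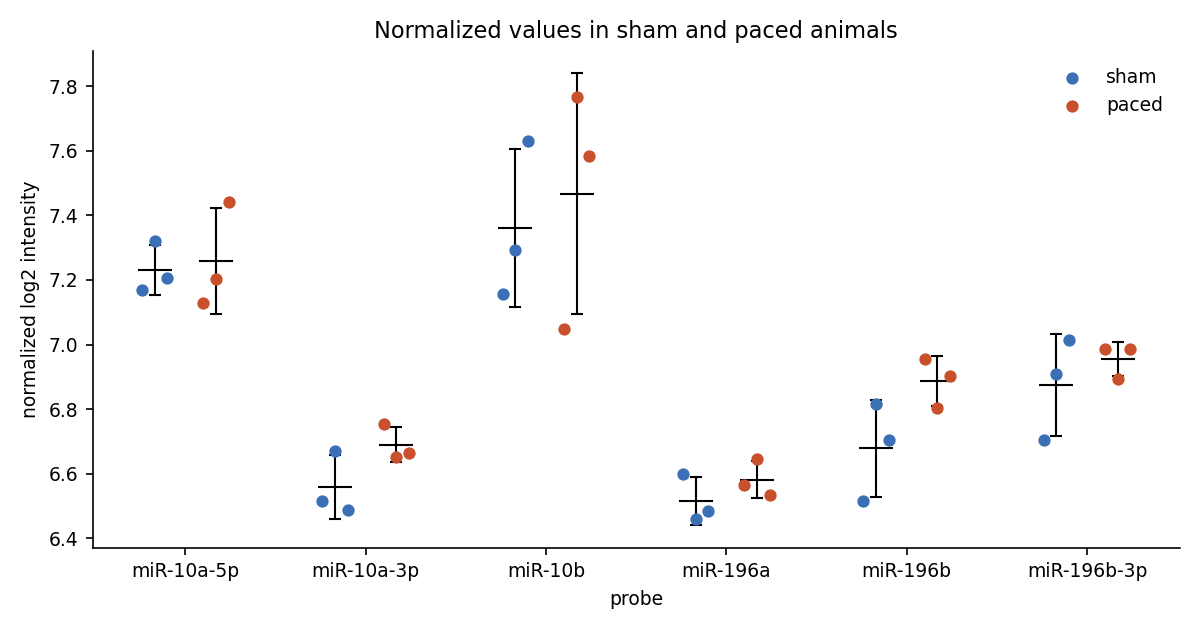
Normalized log2 intensity of each probe in the 3 sham (blue) and 3 paced (orange) animals, with the mean (bar) and SD (error bar) of each group. The groups overlap for all 6 probes, and the spread is widest for miR-10b, with an SD of 0.24 in sham and 0.37 in paced animals.

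Scaling changed the calls. When the median of the 104 probes detected on every array was used for scaling, all 6 differences passed the adjusted threshold, from 0.48 for miR-196a (adjusted p = 0.0229) to 0.82 for miR-196b (adjusted p = 0.000264). In this setting limma gave all 6 probes the same SE, 0.187, so these p values do not measure the spread of each probe among animals. This scaling moved the median of all 322 probes by 0.44, and 181 probes then passed the unadjusted threshold, 176 of them higher in paced animals. Relative to the median probe the 6 differences were 0.05 for miR-196a, 0.17 for miR-10a-3p, 0.21 for miR-10a-5p, 0.27 for miR-10b, 0.29 for miR-196b-3p and 0.39 for miR-196b. Without normalization between arrays the relative differences were the same by construction, since this scaling only moves each array by a constant. The median shift was then 0.27, and 1 of the 6 probes, miR-196b, passed the unadjusted threshold, again with the same SE, 0.33, for all 6.

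**Figure D4:**
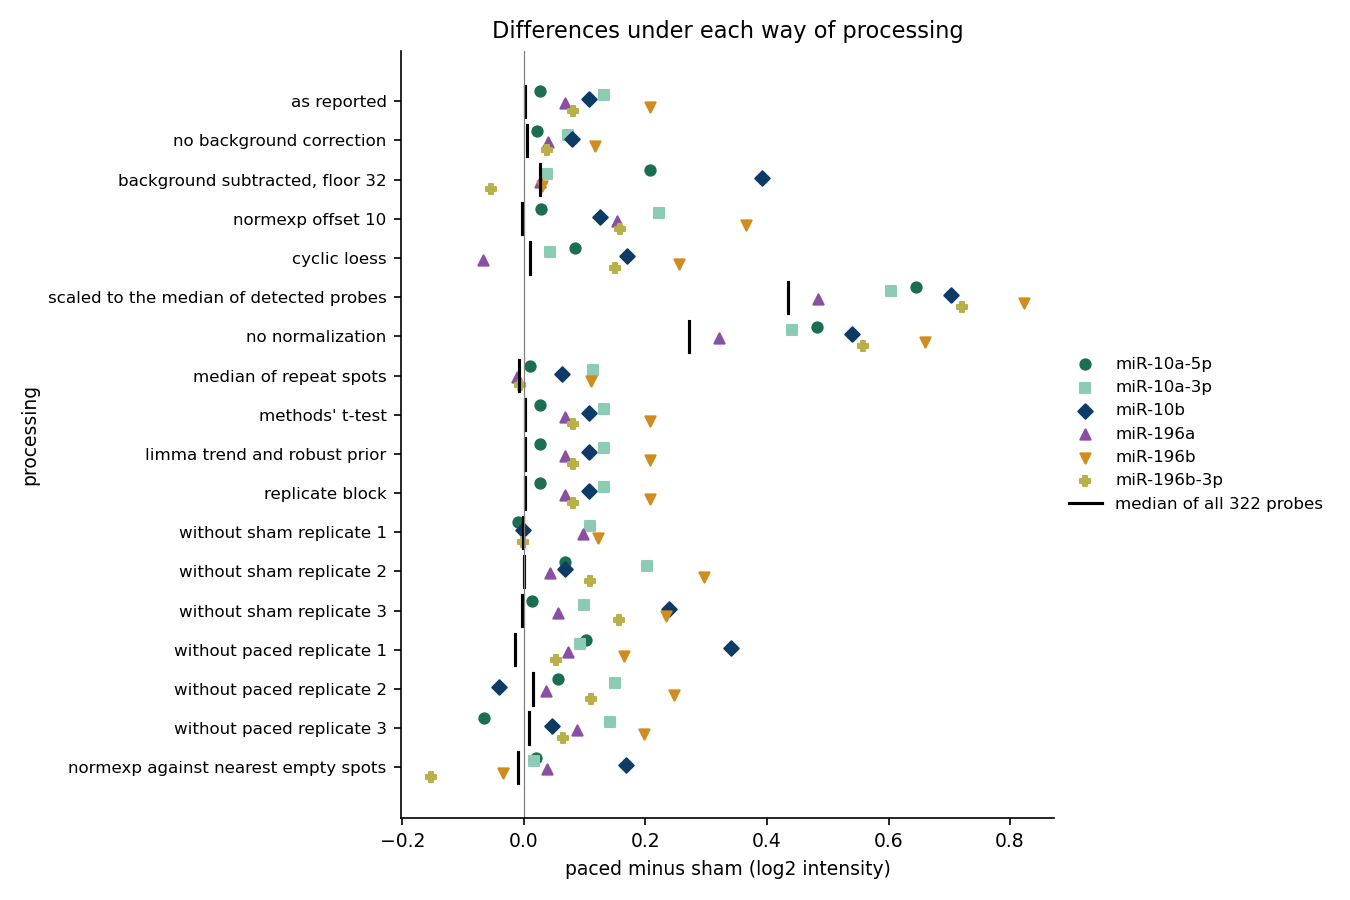
Paced minus sham log2 difference of each probe (points) under each way of processing, with the median of all 322 probes as a black bar; the authors' processed values are left out because those of miR-10a-3p and miR-196a reach down to near 0. The 6 probes lie at 0.48 to 0.82 when the arrays are scaled to the detected probes, where the median of all probes itself lies at 0.44, and between 0.027 and 0.21 as reported.

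The authors' processed values, 1 for each probe and array on a linear scale, put miR-10b at 23.4, 38.9 and 82.4 units in sham and at 20.3, 105 and 83.3 units in paced replicates 1, 2 and 3. The group means were 48.2 ± 30.6 and 69.6 ± 44.1 units (SD, n = 3 each; exact permutation test, two-sided, p = 0.6). miR-10a-5p was at 23.8, 43.5 and 34.4 units in sham and at 29.3, 38.5 and 61.6 units in paced animals (exact permutation test, two-sided, p = 0.5). In these values too, replicate 1 of each group was the lowest for both miRNAs.

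2 of the 6 probes did not overlap in the processed values, both higher in paced animals. Over the whole array this held for 55 of 322 probes (17.1%), 24 of them higher in paced animals (7.45%). miR-196b-3p was at 7.03, 4.23 and 7.06 units in sham and at 9.45, 7.82 and 11.6 units in paced animals (exact permutation test, two-sided, p = 0.1, the smallest this design allows). miR-10a-3p was at 0.00547, 0.0706 and 0.0321 units in sham and at 0.351, 1.27 and 0.174 units in paced animals, with the same p. The median processed value of an array was between 48.7 and 59.2 units, and since both probes stayed within background on every array, no fold is stated. miR-196a stayed between 0.00203 and 1.497 units and miR-196b between 0.431 and 6.86 units, with overlap.

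The sequence relatives of the 2 families were read on the same arrays. The miR-99, miR-100 and miR-125 probes, which belong to the wider miR-10 group of miRNAs, were well above background on all 6 arrays in 5 of 5 cases. The 9 let-7 and miR-98 probes were listed by name, and 7 of their targets hold the letters of the miR-196 seed, the exceptions being let-7e and the opposite arm let-7d-3p. Of these 9 probes 8 were well above background on all 6 arrays, while the 6 miR-10 and miR-196 probes were so in 0 cases. None of the 14 relatives passed the unadjusted threshold in either direction, compared with 10.6% of all probes, bright and dim. When dim probes were filtered out, 5 probes of the array passed it. Their median difference was -0.01 for the miR-10 relatives and 0.08 for let-7 and miR-98, beside 0.09 for the 6 probes and 0.0017 for all 322.

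Among the miR-10 relatives, miR-99b had the lowest p, with a difference of -0.07 (SE 0.07, limma, adjusted p = 0.747), and miR-125b the highest level, at 14.04 ± 0.02 for sham and 14.02 ± 0.02 for paced animals (SD, n = 3 each). Among the miR-196 relatives, let-7e had the lowest p, with a difference of 0.17 (SE 0.17, limma, adjusted p = 0.747), and let-7a the highest level, at 12.89 ± 0.16 and 12.98 ± 0.12 (SD, n = 3 each). Levels of different probes depend on the probe as well as on the miRNA, so that the levels of the relatives are not set against those of the 6 probes.

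**Figure D5:**
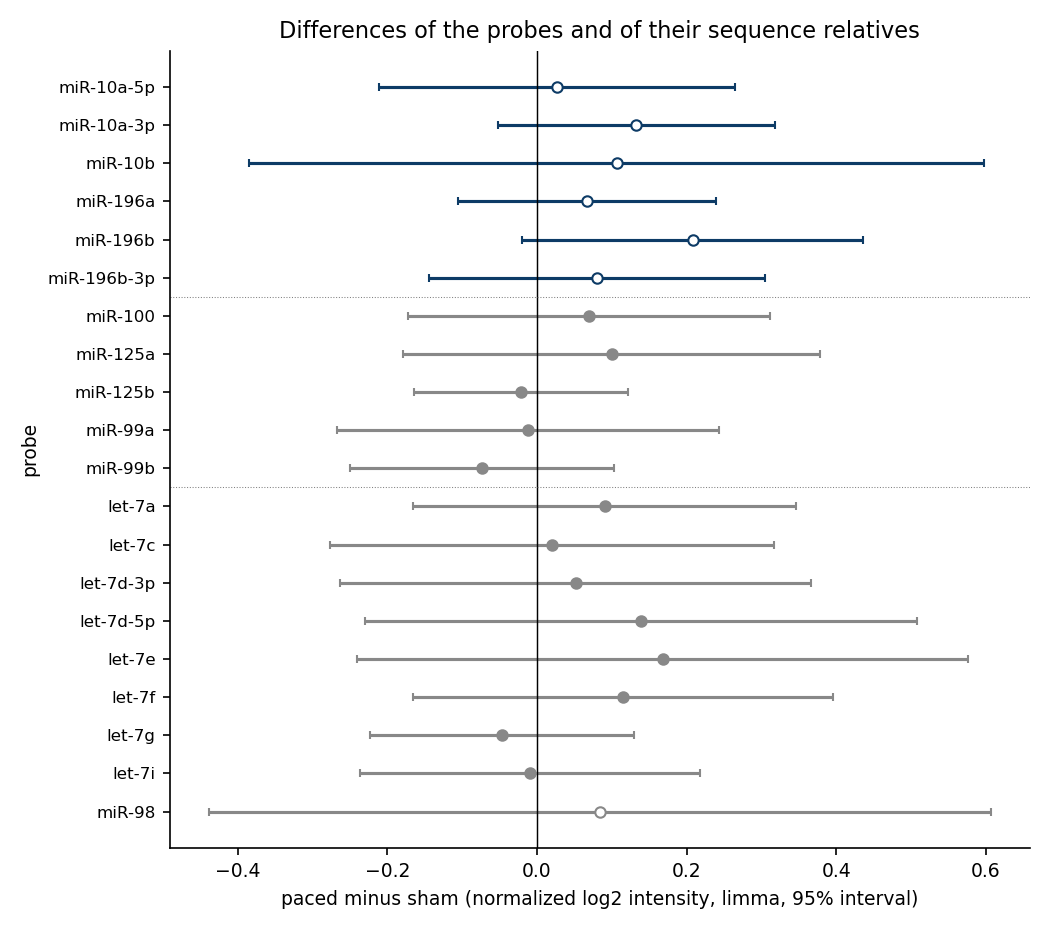
Paced minus sham difference in normalized log2 intensity with its 95% interval from limma, for the 6 probes (blue) and for their sequence relatives (grey). Filled points mark probes well above background on all 6 arrays; every interval covers 0.

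The pattern over the 6 animals was compared by the Euclidean distance between log2 profiles, each centred on its own mean, a measure under which probes of small spread lie close together. miR-10a-5p and miR-10b were 0.60 apart, which placed miR-10b at rank 267 among the 321 other probes. The spread of miR-10b, the widest of the 6 probes, by itself enlarges this distance, so the rank does not show that the pair differed in pattern. miR-196b stood at rank 195 from miR-196a, at a distance of 0.40. Of the probes for the 2 arms of one hairpin, miR-10a-3p was at rank 75 from miR-10a-5p (0.32) and miR-196b-3p at rank 11 from miR-196b (0.22). Probes from different loci came as near, with miR-196b-3p at rank 63 from miR-10a-5p (0.31) and miR-196b at rank 22 from miR-10a-3p (0.19). The members of each of these same-hairpin pairs also stand in neighbouring rows of the chip, as do miR-10a-5p and miR-10b.

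The profiles nearest to miR-10b were those of miR-30e-3p (distance 0.12), miR-30a-5p (0.25) and miR-450b-5p (0.25), the first and second of them well above background on all 6 arrays. The nearest to miR-10a-5p were miR-532-3p (0.14), miR-206 (0.18) and miR-23a (0.18). For miR-10a-3p they were miR-136 (0.10), miR-202-3p (0.13) and miR-193a-3p (0.13), and for miR-196a they were miR-7141-5p, miR-4339 and miR-7140-5p (0.10 each). For miR-196b they were miR-335 (0.12), miR-493-5p (0.13) and miR-7136-5p (0.15), and for miR-196b-3p they were miR-503 (0.10), miR-494 (0.11) and miR-216 (0.16). Of the 12 neighbours of the 4 dimmest probes, 11 were themselves well above background on no array.

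The tissue label was checked against marker miRNAs. Of 7 probes for heart muscle miRNAs (miR-1, miR-133a, miR-133b, miR-208b and miR-499), 6 were well above background on at least 5 arrays, and the exception was miR-499-3p. Of 6 probes for liver, neural and epithelial miRNAs, 6 were well above background on no array. Over all 322 probes, 44.4% were so on no array and 32.3% on all 6. Of the miRNAs listed here for blood cells, miR-486 had a log2 difference of -0.70 without overlap (SE 0.15, limma, unadjusted p = 0.00302, adjusted p = 0.148). The paper lists miR-486 as reported in mouse skeletal muscle, so it does not mark blood cells alone. miR-451 had a difference of -0.37 (SE 0.20, limma, adjusted p = 0.507). Of the endothelial miR-126, the 3p probe, well above background on all 6 arrays, had a difference of -0.02 (SE 0.10, adjusted p = 0.935), and the 5p probe (miR-126-5p), well above it on none, one of 0.37 (SE 0.13, limma, unadjusted p = 0.0243, adjusted p = 0.360). The part of blood or endothelial cells in the miR-10 values was not tested.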

How the data were processed

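LA RNA was labelled, hybridized to the pig miRNA array (miRBase 20 content) and scanned by a service provider. For every spot the authors deposited its median intensity, which is linear and includes background. They also deposited 1 processed intensity per probe and array, whose background removal and normalization are not given in the sources used here. That table was used only as an alternative. Sham and paced groups were taken from the titles.

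All spots of the scanner data were corrected with normexp (offset 50, limma 3.58.1, R 4.3.3). The 1070 control spots were left out, and the 2898 miRNA spots were quantile-normalized, transformed to log2 and averaged over 9 repeats. lmFit and eBayes were run over all 322 probes without covariates, and p values were adjusted over all of them after Benjamini and Hochberg. The fit was tested on simulated data. Single values were compared by exact permutation over the 6 arrays. Local background was taken from the 15 empty spots closest to a spot (median), with a cut at 3 SD of the local differences among empty spots. The number of arrays limits the precision. Plots were made in matplotlib 3.10.9 (Python 3.11.15).

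The 6 probes, the 2 lists of relatives and the tests were chosen with earlier results of these data known. The named miRNAs are the 6 probes, the probe with the lowest p and the one with the highest mean of each list, the 3 nearest profiles of each of the 6 probes, and the tissue markers. Each alternative changed 1 choice, except that the authors' processed values replace background removal, normalization and spot summary together and that limma's trended and robust prior changes 2 settings.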

Additional observations from a re-analysis of the deposited data

How the results depend on the processing

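Over 18 alternatives, no difference of the 6 probes passed the adjusted threshold except under scaling of each array to its detected probes. It was then 0.64 for miR-10a-5p, 0.60 for miR-10a-3p, 0.70 for miR-10b, 0.48 for miR-196a, 0.82 for miR-196b and 0.72 for miR-196b-3p, on a median shift of 0.44, with 181 probes at the unadjusted and 171 at the adjusted threshold and 6 of the 6 probes at the former. All 6 probes had the same SE of 0.187 there, so the p values do not measure the spread of each probe. The cause of the difference between the scalings was not tested. Differences below 0 were found for miR-196b-3p with plain subtraction (-0.054), for miR-196a with cyclic loess (-0.067) and on the authors' processed values (-4.11), for miR-196a (-0.012) and miR-196b-3p (-0.0058) with the median of the repeat spots, and for miR-196b (-0.035) and miR-196b-3p (-0.15) against the nearest empty spots, the only alternative added after the data were examined. With 1 animal left out, the difference ran from -0.066 to 0.10 for miR-10a-5p, from 0.09 to 0.20 for miR-10a-3p, from -0.041 to 0.34 for miR-10b, from 0.04 to 0.10 for miR-196a, from 0.12 to 0.30 for miR-196b and from -0.0013 to 0.16 for miR-196b-3p. The count of all probes at the unadjusted threshold then ran from 18 (without paced replicate 3) to 69 (without paced replicate 1) and was 20 without sham replicate 2, the count at the adjusted one from 0 to 9 (without paced replicate 1), and the count of the 6 probes from 0 to 1 (miR-196b, without sham replicate 2). The count of all probes was 15 without normalization, all higher in paced animals, and 5 with the filter on dim probes, which left none of the 6 probes to test. On the authors' processed values it was 31, of which 20 were higher. The values of -4.11 for miR-196a and 4.203 for miR-10a-3p (adjusted p = 0.598 and 0.345 in limma) on that table come from processed values near 0 of probes not well above background on any array, and are no measure of fold. The count of the 6 probes was 1 without normalization (miR-196b), 1 on the authors' processed values (miR-10a-3p) and 1 with limma's trended and robust prior (miR-196b), where 40 of all probes passed.

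The number of arrays with a well measured probe changed for 2 of the 6 probes. For miR-10a-5p it was 2 with 2 SD in place of 3 and 2 against the nearest empty spots, and for miR-10b it was 3 with 2 SD, 4 at percentile 99 of the empty spots and 4 against the nearest empty spots. Animals of both groups share replicate numbers. The deviations from the group means correlated at 0.17, -0.04 and 0.14 for numbers 1, 2 and 3, and from -0.23 to 0.19 for unlike numbers. With 3 animals per group these values cannot decide whether the numbers pair the animals. With the replicate number as a block, 33 probes reached the unadjusted threshold, 0 of them among the 6 probes, and no call of the 6 probes changed. Without the block 34 probes reached it. The SE of the miR-10b difference was 0.14 with the block and 0.21 without it.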
